A study of Mus musculus with 6 samples.

Results

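The Gstt, Ddt and Mif genes stand side by side on mouse chromosome 10 and were examined in RAW 264.7 cells, a mouse macrophage-like cell line, given bacterial lipopolysaccharide (LPS). The cluster was taken as the probes whose platform annotation names 1 gene symbol and whose symbol is Ddt, Gstt3, Gstt1, Gstt4, Gstt2 or Mif. This gave 6 genes with 9 probes, out of 9607 genes measured on all arrays and 16281 probes. The 6 genes follow each other in the order given, with no other annotated gene between them in the GRCm38.p6 gene table. The genes were chosen because of their ratios between treated and untreated cells, so those ratios are described below and no p-value is given for them.

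Treated cells received LPS at 100 ng/ml together with LPS-binding protein at 100 pM, the serum protein that passes LPS to its receptor complex, for 16 hours. Untreated cells of the same line were cultured for the same 16 hours. Each of 6 dual-colour arrays carried total RNA of both, 3 with the treated RNA in the dye Cy5 and 3 with it in Cy3, and each orientation holds sets 1, 2 and 3. Whether the sets came from separate cultures is not given, so the spread behind the p-values may be technical only. Each value is a log2 ratio of treated over untreated cells, and a gene's value is the mean ± SD over the 3 sets (n = 3), where the 2 orientations of a set were averaged first. The direction of the deposited table is unstated; Cy5 over Cy3 is likely, since Cy5-labelled RNA is described as the test sample on every array, and the reverse would turn every sign below. An array ratio holds no level, so the macrophage markers of the line could not be checked, and fewer expressing cells cannot be told apart from less RNA per cell.

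Theta-class glutathione transferases, which the Gstt genes encode, join glutathione to reactive electrophiles and small halogenated compounds, a step in detoxification. Mif encodes macrophage migration inhibitory factor, a cytokine that macrophages hold ready-made and release on stimulation, and that signals through the surface protein CD74. Ddt encodes D-dopachrome tautomerase, a close relative of MIF in sequence and fold that binds the same receptor.

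The RefSeq promoter table (GRCm38.p6) held a start site for 5 of the 6 genes. It held 2 for Gstt3, of which only the first listed was used. The 250 bases before the start used are given 5′ to 3′ because these neighbours differed widely in their ratios. All are on the minus strand, at chr10:75773375-75773624 for Ddt, chr10:75781423-75781672 for Gstt3, chr10:75797732-75797981 for Gstt1, chr10:75822544-75822793 for Gstt4 and chr10:75860278-75860527 for Mif. Capitals mark matches to the motifs named after the sequences.
Ddt: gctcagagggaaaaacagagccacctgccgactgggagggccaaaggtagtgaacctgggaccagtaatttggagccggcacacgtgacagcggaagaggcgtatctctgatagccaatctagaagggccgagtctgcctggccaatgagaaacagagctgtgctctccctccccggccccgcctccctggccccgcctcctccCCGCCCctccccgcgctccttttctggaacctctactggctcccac
Gstt3: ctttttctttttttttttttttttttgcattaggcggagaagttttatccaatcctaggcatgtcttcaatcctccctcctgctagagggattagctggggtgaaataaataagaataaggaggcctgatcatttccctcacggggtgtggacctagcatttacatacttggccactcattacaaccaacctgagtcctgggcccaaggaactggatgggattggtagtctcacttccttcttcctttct
Gstt1: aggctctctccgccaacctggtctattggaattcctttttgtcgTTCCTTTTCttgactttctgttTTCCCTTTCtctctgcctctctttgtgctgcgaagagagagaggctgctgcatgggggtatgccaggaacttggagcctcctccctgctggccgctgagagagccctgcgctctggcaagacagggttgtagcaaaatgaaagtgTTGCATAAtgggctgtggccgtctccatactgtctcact
Gstt4: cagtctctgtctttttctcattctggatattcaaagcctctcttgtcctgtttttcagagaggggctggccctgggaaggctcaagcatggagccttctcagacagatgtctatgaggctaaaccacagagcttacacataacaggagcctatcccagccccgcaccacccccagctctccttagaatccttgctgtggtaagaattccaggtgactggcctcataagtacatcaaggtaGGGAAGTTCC
Mif: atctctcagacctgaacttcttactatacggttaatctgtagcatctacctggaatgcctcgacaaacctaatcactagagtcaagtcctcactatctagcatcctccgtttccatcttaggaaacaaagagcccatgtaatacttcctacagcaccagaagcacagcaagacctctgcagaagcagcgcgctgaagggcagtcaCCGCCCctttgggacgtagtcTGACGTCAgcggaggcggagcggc

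Motif searches covered both strands of these 250 bases, no match shared a base with another, and a match is a description of the letters only. Gstt4 held 1 match to the NF-kappaB consensus, which ends at the last base before the start and which 7.25% of 32851 promoter windows of this length hold. Gstt1 held 2 matches to the interferon-response core GAAANNGAA, both on the reverse strand and found in 7.13% of windows, and 1 to the C/EBP motif TTGCNNAA, found in 9.56%. Mif held the cyclic AMP response motif TGACGTCA, found in 1.55% of windows, and like Ddt a GC box, GGGCGG, found in 32.7%. The window of Gstt3 given here held none of the motifs searched, and the window of its other start was not searched. The STAT motif TTCNNNGAA, the AP-1 motif TGANTCA and the antioxidant response core TGACNNNGC, found in 7.02%, 6.75% and 10.2% of windows, matched in none of the 5. The share of G and C was 62.8% for Ddt, 43.6% for Gstt3, 52.8% for Gstt1, 50.4% for Gstt4 and 51.2% for Mif, against a median of 52.4% over all windows.

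The ratios of treated over untreated cells peaked in the middle of the cluster and were near 0 at its Mif end. In chromosomal order they were 5.05-fold for Ddt (log2 2.33 ± 0.26), 3.16-fold for Gstt3 (1.66 ± 0.31), 12.4-fold for Gstt1 (3.63 ± 0.49), 21.7-fold for Gstt4 (4.44 ± 0.40), 1.57-fold for Gstt2 (0.65 ± 0.03) and 0.953-fold for Mif (-0.07 ± 0.08). The median log2 ratio of the 6 genes was 2.00, against -0.01 over all 9607 genes. In limma, 5 of the 6 were among the genes called at an adjusted p under 0.05, all higher in treated cells, where 31.4% of all genes were called, 16.8% higher and 14.6% lower; since the genes were chosen from this contrast, nothing is read from that count. Ordered from the highest ratio down, Gstt4 stood in place 6 of 9607, Gstt1 in place 24, Ddt in place 80, Gstt3 in place 155, Gstt2 in place 664 and Mif in place 6161. With the direction of the table reversed, these places would be 9602, 9584, 9528, 9453, 8944 and 3447, and the shares called higher and lower would change places. The value of Gstt1 and its place hold for 1 of its 2 probes. When probes with at least 1 ratio in each set were used, its second probe entered. Gstt1 was then at 2.15, in place 95 of 10145 and below Ddt. The set 2 array with treated RNA in Cy3 still rested on the first probe alone, at 3.45, so 2.15 is not a mean of both probes on every array.

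**Figure D1:**
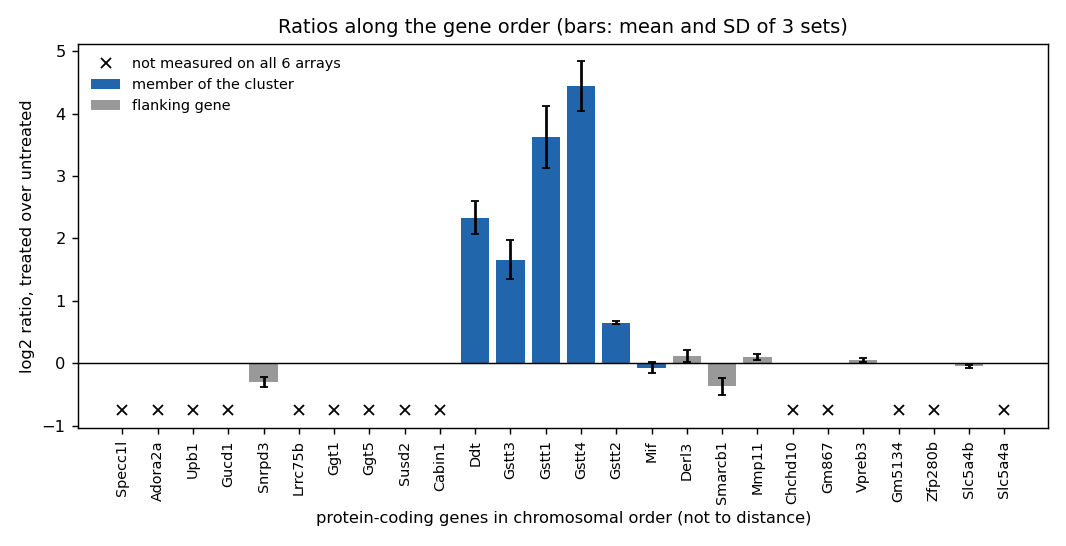
Log2 ratio of treated over untreated cells (vertical axis) for the cluster and the 10 protein-coding genes on either side, in gene order and not to distance; bars are the mean and error bars the SD of 3 sets, and crosses are genes not measured on all 6 arrays. Gstt4 (4.44) and Gstt1 (3.63, by 1 of its 2 probes) stand highest, Mif is at -0.07, and the 6 measured flanking genes lie between -0.37 and 0.12. With its second probe included on the arrays where that probe gave a ratio, Gstt1 is at 2.15 and below Ddt.

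Gstt4, a theta-class transferase gene, had the highest ratio of the cluster on every array. With treated RNA in Cy5 its log2 ratio was 4.42, 5.66 and 5.04 in sets 1, 2 and 3, and in the other orientation it was 3.61, 3.96 and 3.94. The lowest of these is a 12.2-fold and the highest a 50.5-fold ratio, so all 6 arrays gave a large ratio. On the deposited scale the Cy5 arrays gave a larger one, without overlap, by a mean of 1.20. Under quantile normalization that difference was 0.15. Of all genes, those nearest to Gstt4 by Euclidean distance over the 6 log2 ratios were Il1a (distance 0.30), an LPS-induced cytokine, Il1rn (0.36), the interleukin 1 receptor antagonist, and Csf3 (0.41), a granulocyte growth factor. Their mean log2 ratios were 4.42, 4.36 and 4.41.

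Gstt1, the best studied theta-class gene, gave a different value from each of its 2 probes. The probe designed on X98055 had log2 ratios of 3.47, 4.79 and 4.02 in sets 1, 2 and 3 with treated RNA in Cy5, and of 2.81, 3.45 and 3.21 with treated RNA in Cy3. The probe designed on NM_008185 had 0.17, 0.55 and -0.48 with treated RNA in Cy5, and 0.18 and 0.19 in sets 1 and 3 with treated RNA in Cy3, the other array giving no ratio. The first probe was high on all 6 arrays, and the second lay near 0 with 4 of 5 ratios above it. Over the complete sets the second probe averaged 0.01 ± 0.22 (n = 2), a gap of 3.61 between the probes on the log2 scale. The gene's value of 3.63 rests on the first probe alone, because the second lacked a ratio on 1 array. Its value with the second probe included on the other arrays is given above. Probe sequences were not analysed here, so which of the Gstt transcripts each probe binds is uncertain for all 4 Gstt genes.

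Over the arrays, the first probe of Gstt1 moved with Gstt4. The log2 ratio of Gstt4 was higher than that of Gstt1 on 6 of 6 arrays, by 0.81 ± 0.11 over the sets (n = 3), although their ranges overlapped. Both were lowest in set 1 and highest in set 2, at 4.02, 4.81 and 4.49 for Gstt4 and at 3.14, 4.12 and 3.62 for Gstt1 in sets 1, 2 and 3. Ddt and Gstt3 were also highest in set 2. The array of set 2 with treated RNA in Cy5 gave the highest ratio of 5 of the 6 genes and the lowest of Gstt2. That array also had the widest spread of ratios over all probes, with an SD of 0.64 against 0.54 to 0.62 on the others. Without set 2 the log2 ratios were 4.25 for Gstt4, 3.38 for Gstt1, 2.22 for Ddt and 1.48 for Gstt3. The genes nearest to Gstt1 over the 6 arrays were Lynx1 (distance 0.45), Zbp1 (0.48), a sensor of nucleic acids, and Lilr4b (0.50), an inhibitory receptor of myeloid cells.

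**Figure D2:**
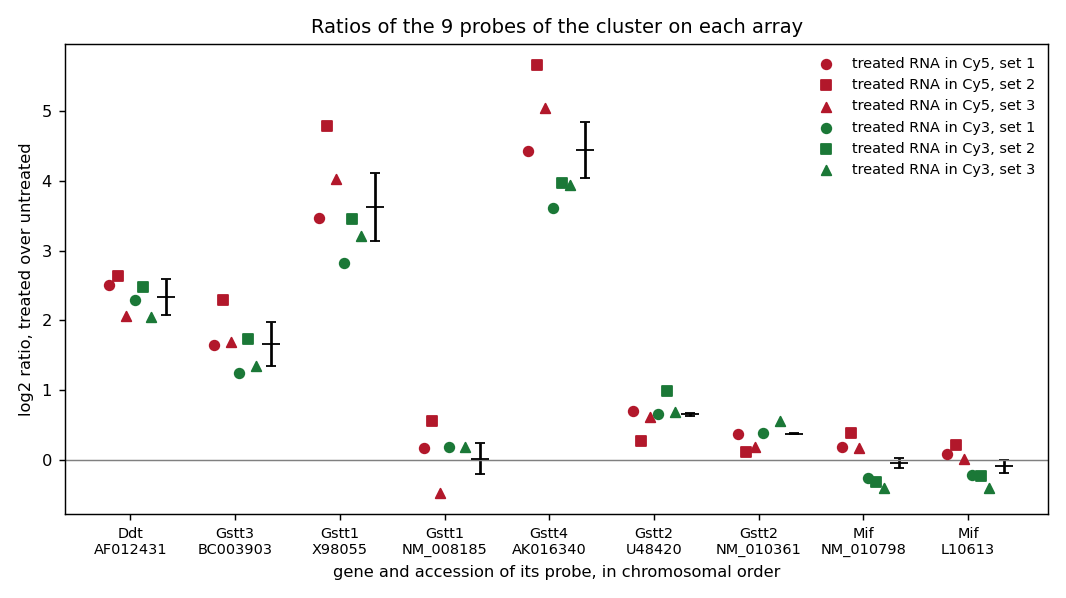
Log2 ratio of treated over untreated cells (vertical axis) for the 9 probes in chromosomal order, with 1 point per array (red: treated RNA in Cy5, green: treated RNA in Cy3; the shape gives the set) and the mean ± SD of the complete sets in black (n = 3, or n = 2 for the probes NM_008185 and NM_010361). The probes of Gstt1 differ by 3.61, those of Gstt2 by 0.28 and those of Mif by 0.05 on the log2 scale.

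Ddt and Gstt3, at the other end of the cluster from Mif, stood between these extremes. Ddt had log2 ratios of 2.51, 2.64 and 2.05 in sets 1, 2 and 3 with treated RNA in Cy5, and of 2.29, 2.47 and 2.04 with treated RNA in Cy3. The 2 orientations overlapped, and the lowest array still gave a 4.11-fold ratio. Gstt3 had 1.65, 2.30 and 1.69 with treated RNA in Cy5 and 1.24, 1.73 and 1.35 with treated RNA in Cy3. Its lowest ratio was 2.37-fold, and Ddt exceeded it on 6 of 6 arrays, by 0.68 ± 0.24 on the log2 scale (n = 3). Ddt was nearest over the arrays to Pim1 (distance 0.38), a survival kinase, Nupr1 (0.40), a stress-induced nuclear protein, and Upp1 (0.42), a uridine phosphorylase. Gstt3 was nearest to Esrrg (0.32), an orphan nuclear receptor, H2-T22 (0.37), a nonclassical MHC class I gene, and Mxd1 (0.49), a Myc antagonist.

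Gstt2, the theta-class gene next to Mif, had a small ratio. Its probe on U48420 gave log2 ratios of 0.70, 0.27 and 0.61 in sets 1, 2 and 3 with treated RNA in Cy5, and 0.65, 0.98 and 0.68 with treated RNA in Cy3. Its probe on NM_010361 gave 0.36, 0.10 and 0.19 with treated RNA in Cy5, and 0.38 and 0.55 in sets 1 and 3 with treated RNA in Cy3. All 11 ratios were above 0, and both probes were lowest in set 2 with treated RNA in Cy5, the array that was highest for the other Gstt genes. The second probe averaged 0.37 ± 0.01 (n = 2). The small SD of the gene value, 0.03, does not show the spread of single arrays, which ran from 0.27 to 0.98. Gstt3 exceeded Gstt2 on 6 of 6 arrays, by 1.01 ± 0.33 (n = 3), with no overlap of their ranges. The genes nearest to Gstt2 were Reln (distance 0.17), an extracellular matrix protein, Frmd6 (0.20) and Jdp2 (0.21), a repressor of AP-1 factors.

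Mif had a ratio near 0 whose sign went with the dye orientation. Its probe on NM_010798 had log2 ratios of 0.18, 0.38 and 0.16 in sets 1, 2 and 3 with treated RNA in Cy5, and of -0.26, -0.33 and -0.40 with treated RNA in Cy3. Its probe on L10613 had 0.09, 0.20 and 0.02 with treated RNA in Cy5, and -0.22, -0.23 and -0.41 with treated RNA in Cy3. On both probes the sign was that of the orientation on all 6 arrays, so the ratio as deposited, before turning, was above 0 on every array. The 2 orientations cancelled to -0.04 ± 0.07 and -0.09 ± 0.09 on the 2 probes (n = 3). Ddt, which encodes the MIF relative at the other end of the cluster, was at 2.33, so the pair of related cytokine genes differed by 2.40 on the log2 scale. The genes nearest to Mif, 4930522H14Rik (distance 0.14), Fam227a (0.16) and Cd40lg (0.17), also had means near 0.

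Dye orientation was not used to choose the genes and could be tested. In a 6-array limma model the ratio with treated RNA in Cy5 minus that in Cy3 was 1.20 for Gstt4 (means 5.04 ± 0.62 and 3.84 ± 0.20, adjusted p = 0.142), 0.93 for Gstt1 (4.09 ± 0.66 and 3.16 ± 0.32, adjusted p = 0.23) and 0.48 for Mif (0.17 ± 0.11 and -0.31 ± 0.09, adjusted p = 0.145). In these 3 of the 6 genes the orientations did not overlap, as in 24% of all genes. For Gstt3 the difference was 0.44 (adjusted p = 0.341), for Ddt 0.13 (adjusted p = 0.748) and for Gstt2 -0.25 (adjusted p = 0.462). Thus 0 of 6 genes passed in limma, where 0.364% of all genes did. An unadjusted p under 0.05 was found for 3 of the 6, and for 1560 of all 9607 genes. The differences of Gstt4 and Gstt1 were smaller after quantile normalization, which gives all arrays the same set of values. Gstt4 stood in places 7 and 9 of 9607 with treated RNA in Cy5 only and in Cy3 only, and Gstt1 in places 18 and 31. Genes so near the top in both orientations come out closer by construction, so the cause of the differences was not tested. After quantile normalization the same model gave 0.15 for Gstt4 (adjusted p = 0.585) and 0.32 for Gstt1 (adjusted p = 0.513). Mif stayed at 0.48 (adjusted p = 0.136). Within each orientation alone, Ddt and the 4 Gstt genes were above 0 on all 3 arrays.

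**Figure D3:**
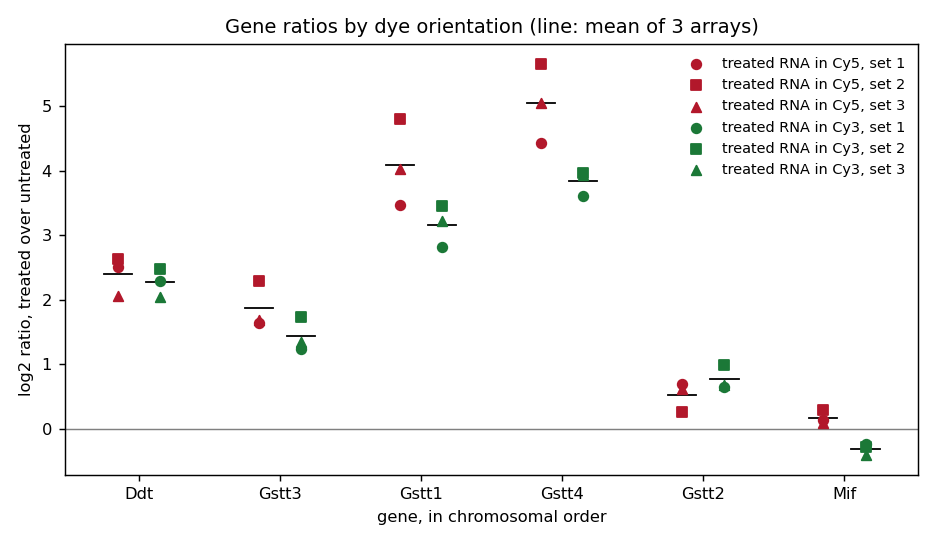
Log2 ratio of treated over untreated cells (vertical axis) for the 6 genes, with the 3 arrays that had treated RNA in Cy5 (red) left of the 3 that had it in Cy3 (green); shapes give the set and lines the mean of 3 arrays. The orientations do not overlap for Gstt1, Gstt4 and Mif, and those of Mif lie on opposite sides of 0.

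Genes beside the cluster did not share its large ratios, as far as they were measured. Of the 10 protein-coding genes on either side, 8 of 20 had a probe and 6 were measured on all arrays, 1 before Ddt and 5 after Mif. In limma 0 of the 6 rose and 2 fell, the same 2 that had an unadjusted p under 0.05, with a median log2 ratio of 0.00, where 31.4% of all genes were called. Of all 9607 genes, 3862 had an unadjusted p under 0.05. Smarcb1, a subunit of the SWI/SNF chromatin remodeller, fell 1.29-fold (log2 -0.37 ± 0.14, adjusted p = 0.0133), with array ratios of -0.44, -0.76 and -0.27 in sets 1, 2 and 3 with treated RNA in Cy5 and -0.38, -0.20 and -0.15 with treated RNA in Cy3. Snrpd3, a core protein of spliceosomal particles, fell 1.23-fold (-0.30 ± 0.09, adjusted p = 0.0204). The array ratios of Snrpd3 ran from -0.67 to 0.003. Both calls were lost without set 2 (adjusted p = 0.0697 and 0.0853 for Smarcb1 and Snrpd3), that of Smarcb1 also without set 1 (0.0755) and that of Snrpd3 without set 3 (0.0581). With treated RNA in Cy3 only both were lost too (0.0828 and 0.135), and with it in Cy5 only that of Snrpd3 (0.0992). Derl3, the gene next to Mif and a component of protein disposal from the endoplasmic reticulum, was at 0.12 ± 0.10 (adjusted p = 0.31). Mmp11, a matrix metalloproteinase, was at 0.10 ± 0.05 (adjusted p = 0.349), Vpreb3, known from B cell precursors, at 0.05 ± 0.04 (adjusted p = 0.658) and Slc5a4b at -0.05 ± 0.03 (adjusted p = 0.677). On the Ddt side the nearest measured gene was Snrpd3, 5 places beyond the nearest neighbour Cabin1, for which no probe was named, so the edge of the high ratios was not measured there.

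Other glutathione transferases were compared as the wider family, together with microsomal transferases and proteins of the same fold. Of 23 measured members, 2 rose and 3 fell in limma (21.7% called, against 31.4% of all genes), and the median log2 ratio was 0.01. The largest rises were those of Clic4, a chloride channel protein with a transferase fold (1.72-fold, log2 0.78 ± 0.17, adjusted p = 0.000756), and Gstm4, a mu-class transferase (1.55-fold, 0.64 ± 0.06, adjusted p = 0.000759). Mgst3, a microsomal transferase, fell 2.12-fold (-1.08 ± 0.22, adjusted p = 0.000292), and Eef1g, an elongation factor subunit with a transferase domain, fell 1.39-fold (-0.47 ± 0.19, adjusted p = 0.0078). The omega-class Gsto1 fell 1.20-fold (-0.26 ± 0.09, adjusted p = 0.0335), a call lost without set 1 (adjusted p = 0.0861) and without set 2 (0.15). Its call was also lost with treated RNA in Cy5 only (-0.11, adjusted p = 0.48), and kept with treated RNA in Cy3 only (-0.42, adjusted p = 0.0093). The highest ratio of this list, 0.78, lay above that of Gstt2 and below those of Ddt, Gstt3, Gstt1 and Gstt4.

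Genes that supply or use glutathione changed in both directions. Of 27 measured members, 9 rose and 4 fell (48.1% called, against 31.4% of all genes), with a median of 0.02. Slc7a11, the cystine importer that feeds glutathione synthesis, rose 5.37-fold (log2 2.42 ± 0.33, adjusted p = 2.5e-05), and Chac1, which breaks glutathione down, rose 3.22-fold (1.69 ± 0.09, adjusted p = 1.25e-05). The size of the Slc7a11 rise depended on the probes used. It was 1.74 with probes that had at least 1 ratio in each set and 1.41 with exact zeros kept, and Slc7a11 stayed called in both. Esd, which releases glutathione from S-formylglutathione, rose 2.10-fold (1.07 ± 0.18, adjusted p = 0.000205). Gclc, the catalytic subunit of the rate-limiting enzyme of glutathione synthesis, fell 1.73-fold (-0.79 ± 0.14, adjusted p = 0.000529). Ggt6, a gamma-glutamyltransferase family gene, fell 1.58-fold (-0.66 ± 0.13, adjusted p = 0.00101), and Glo1, a glyoxalase that uses glutathione, fell 1.47-fold (-0.56 ± 0.05, adjusted p = 0.00128).

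Receptors and partners of MIF mostly had small ratios. Of 14 measured members of this list, which also holds genes that MIF is known to act on, 7 rose and 1 fell (57.1% called, against 31.4% of all genes), with a median of 0.22. Bcl2l11, a death-promoting BCL2 relative, rose 2.31-fold (log2 1.21 ± 0.18, adjusted p = 0.000121), and Dusp1, a phosphatase of MAP kinases that MIF is known to hold down, rose 2.08-fold (1.06 ± 0.02, adjusted p = 7.23e-05). Hif1a, an oxygen-regulated transcription factor, rose 1.94-fold (0.95 ± 0.74, adjusted p = 0.0236), with 1.81 in set 3 against 0.53 in both other sets, and its call ended under robust variance moderation (adjusted p = 0.187). Aifm1, a mitochondrial flavoprotein, fell 1.33-fold (-0.41 ± 0.15, adjusted p = 0.00926), a call at the threshold without set 2 (adjusted p = 0.050004). Cd74, the receptor that MIF and D-dopachrome tautomerase share, rose 1.36-fold (0.44 ± 0.30, adjusted p = 0.0274). The chemokine receptor Cxcr2, bound by MIF, rose 1.26-fold (0.34 ± 0.13, adjusted p = 0.0181). Cxcr4 was at -0.01 ± 0.07 (adjusted p = 0.925) and Ackr3, also a receptor of the list, at -0.20 ± 0.18 (adjusted p = 0.142). Cd44, on the list too, was not measured on all arrays. These receptors were named after their values were seen. Cd74 lost its call without set 2 (0.27, adjusted p = 0.0823) and Cxcr2 without set 1 (0.27, adjusted p = 0.113). With treated RNA in Cy5 only both calls were lost as well (adjusted p = 0.0764 for Cd74 and 0.0791 for Cxcr2). The probe of Cxcr2 with the largest change stood at 1.10, so the gene value of 0.34 averages probes that differed. Its rise may therefore not hold for each probe.

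**Figure D4:**
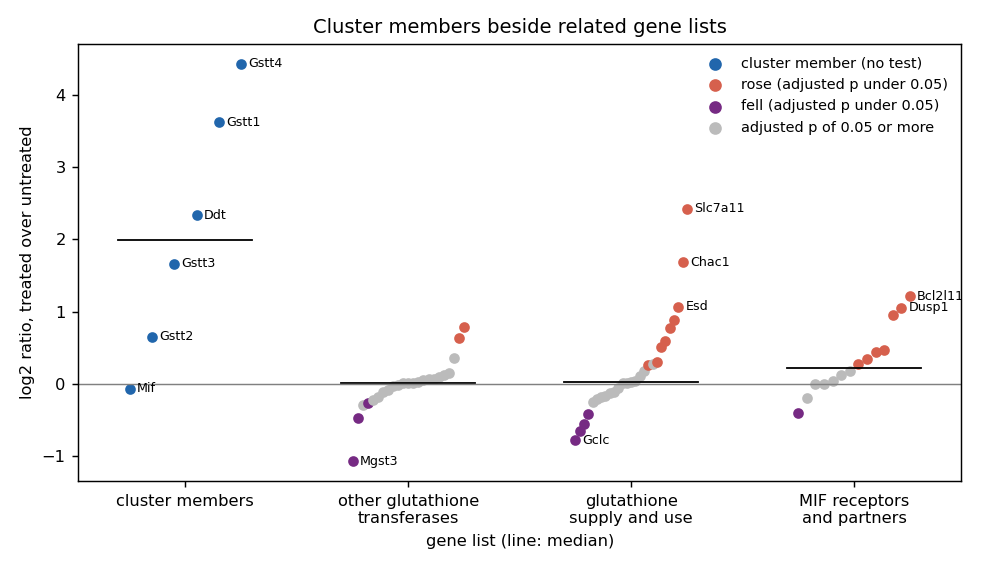
Mean log2 ratio of treated over untreated cells (vertical axis) for each gene of the cluster and of the lists of other glutathione transferases, glutathione supply and use, and MIF receptors and partners; lines are medians and colours give the limma call at an adjusted p under 0.05. The cluster median is 2.00, and those of the lists are 0.01, 0.02 and 0.22.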

How the data were processed

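The authors' deposited table holds log2 ratios of the 2 channels of each array, as read from the signs and range of the values; background correction, normalization, scanner, slides and scan dates were found in no label or header, and signal over background is unknown. Column medians are 0 with exact zeros counted, and lie between -0.027 and 0.013 in the turned ratios without them, so centring was left as deposited. Scale was also left as deposited, although the SD of an array's ratios ran from 0.54 to 0.64. Ratios end at 100-fold, which no probe of the cluster reached. Exact zeros (9.56% to 12.9% of an array's probes) were taken as missing. Of 16281 probes, 13738 name 1 gene symbol, 52 several and 2491 none here. Arrays with treated RNA in Cy3 had their sign turned. Part of the labels spell the number of the cell line differently; the spelling of the titles was used. Probes with a ratio on all 6 arrays (13418; 7 of the 9 probes of the cluster, covering all 6 genes) were averaged per gene.

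Set means were tested against 0 in R 4.3.3 with limma 3.58.1 (two-sided; lmFit and then eBayes), p-values being adjusted by Benjamini-Hochberg over 9607 genes with a threshold of 0.05; a 6-array model tested dye orientation. The fits were tested on simulated data. Python 3.11.15 made tables and figures. Alternatives covered set numbers, zeros, probe choice, quantile normalization, single orientations and robust moderation. The members and lists were chosen with earlier results of these data known. Named are all members, all measured flanking genes, the 3 largest called rises and falls of each list and the 3 genes nearest to each member. Turned ratios correlated at 0.771 to 0.839 within and 0.622 to 0.852 across orientations over probes, which are not independent.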

Additional observations from a re-analysis of the deposited data

Results flagged for a closer look

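The ratio of Mif differed between the dye orientations, because every array with treated RNA in Cy5 lay above 0 and every array with treated RNA in Cy3 below it. The difference of treated RNA in Cy5 minus treated RNA in Cy3 was 0.48 on the log2 scale, with means of 0.17 ± 0.11 and -0.31 ± 0.09 (SD, n = 3 arrays each). It did not pass in the 6-array limma model (adjusted p = 0.145, and 0.136 to 0.435 over the alternatives). Groups of 3 arrays are too small to look for single outlying arrays.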

How the results depend on the processing

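Ddt and the 4 Gstt genes kept their direction under all 11 alternatives, which their choice from this contrast favours. The number of members called was 5 or 6, the sixth being Mif with treated RNA in Cy3 only, while 22.5% to 35.2% of all genes were called; nothing is read from that number. Without set 1, 2 or 3 the log2 ratio ran from 4.25 to 4.65 for Gstt4, from 3.38 to 3.87 for Gstt1, from 2.22 to 2.48 for Ddt and from 1.48 to 1.77 for Gstt3. Keeping exact zeros as ratios gave 1.86 for Gstt1, below Ddt, and 0.46 for Gstt2, since their second probes then enter. Mif was at 0.17 with treated RNA in Cy5 only and at -0.31 with treated RNA in Cy3 only. Flanking genes called numbered 0 to 1 in limma when a set was left out (2 at an unadjusted p under 0.05), 1 with treated RNA in Cy5 only, and 0 with treated RNA in Cy3 only (1 unadjusted). Of all 9607 genes, 3281 to 3657 had an unadjusted p under 0.05 when a set was left out, and 4090 with treated RNA in Cy3 only. Called MIF receptor and partner genes numbered 5 with treated RNA in Cy5 only. Genes called for dye orientation numbered 35, and 4 to 17 when a set was left out. The set number is a block in the main treatment test. Same-numbered arrays deviated together at 0.19, 0.05 and 0.54 in sets 1, 2 and 3, and 1 of 3 sets correlated best with its own number, so the arrays may share only a number. With no replicate block, 3381 genes were called against 3018, and 8 other glutathione transferases against 5. With the replicate block the dye model called 0 genes in limma (2273 at an unadjusted p under 0.05). The cause of these shifts was not tested. For the 24 named flanking and list genes that were followed singly, 247 comparisons with an alternative kept the call or its absence, 16 lost the call and 1 gained it. No called change of these genes reversed. Other list genes, Ackr3 among them, were followed only in the counts.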

Other observations

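Some flanking values rest on single probes. Ggt5, a gamma-glutamyltransferase gene near Ddt, lacked a ratio on 1 array and had log2 ratios of -0.02, 0.08 and 0.01 with treated RNA in Cy5 (sets 1, 2 and 3) and of -0.38 and -0.27 with treated RNA in Cy3 (sets 2 and 3). The 2 probes of Mmp11 disagreed, with means of 0.32 (above 0 on 6 of 6 arrays) and -0.12 (above 0 on 3 of 6), and the gene passed only when its probe with the largest change was used (adjusted p = 0.0462).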
